A study of Mus musculus with 6 samples.

Results

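Store-operated calcium entry and the filling of intracellular calcium stores were followed through 10 genes in the cells of the mouse heart other than cardiomyocytes. The genes were chosen by symbol: Stim1, Stim2, Orai1, Orai2, Orai3, Itpr1, Itpr2, Itpr3, Atp2b1 and Atp2a3. All 10 were found among the 32285 genes counted. The series compares wild-type mice (WT, strain C57BL/6JRj) with mice lacking Trpm4 (KO, B6.Cg-Trpm4tm1.2-PG), all male and between 8 and 12 weeks old. Every mouse had surgery, which was either a sham operation or an infarct caused by tying off a coronary artery, the left anterior descending (LAD). There were 6 groups, WT and KO hearts each sampled 24 h after the sham operation and 24 h or 72 h after LAD ligation. Each group is 1 single-cell RNA library made from the pooled cells of 4 mice, so the comparisons of conditions and genotypes below have no replicate check and no p-value. Ventricles were digested with enzymes, most cardiomyocytes were held back by a fine mesh, and living cells were sorted. The Trpm4 allele is not restricted to a cell type by anything in the labels.

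Calcium enters cells without electrical excitability largely through this pathway. A receptor that activates phospholipase C produces inositol trisphosphate, which opens the IP3 receptors (Itpr1, Itpr2, Itpr3) in the membrane of the endoplasmic reticulum. The fall in store calcium is sensed by STIM proteins (Stim1, Stim2), which then open ORAI channels (Orai1, Orai2, Orai3) in the plasma membrane. SERCA pumps, of which Atp2a3 encodes the SERCA3 type, return calcium to the store, and plasma membrane pumps such as PMCA1 (Atp2b1) expel it from the cell. TRPM4 is a cation channel that is opened by such rises of intracellular calcium and carries mainly sodium, not calcium itself.

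A level below is the number of UMIs (counted transcripts) of a gene per 1000000 UMIs of a cell class in a library (CPM). Its 95% interval is an exact Poisson interval and covers counting error only. Levels rest on tags from the 3′ ends of transcripts and are not divided by gene length, so levels are compared between cells and not between genes. Of 34940 deposited cells, 32085 were kept and grouped into 34 clusters. Marker genes named 13 cell classes, and 2 clusters with 385 cells stayed unnamed. Fibroblasts (144 to 1263 cells a library), endothelial cells (259 to 3090), monocyte/macrophage cells (676 to 2793) and neutrophils (465 to 3405) were the main classes. Their own markers summed to at least 13423 CPM in every library. The libraries held between 20995280 and 45649061 UMIs, and any pair shared between 3 and 13 cell barcodes.

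The KO library at 72 h after ligation stood apart. Its kept cells had a median of 1351 UMIs, against 3076 to 8011 in the other libraries, and 4 clusters drew over 80% of their cells from it. Its fibroblasts had a median of 1082 UMIs, against 10150.5 in WT at 72 h. Summed markers of monocyte/macrophage cells reached 8331 CPM in its fibroblasts, against 85.6 to 433 CPM in the fibroblasts of the other 5 libraries. Trpm4 itself was counted at 8.79 CPM in WT and 6.20 CPM in KO at sham, 5.52 and 3.46 CPM at 24 h after ligation, and 4.29 and 2.57 CPM at 72 h. It was lower in KO in each condition, but tags from the 3′ end do not check a deletion that may lie elsewhere in the gene.

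Among the store sensors, Stim1 was highest in the mural cells of vessels and Stim2 in endothelium. Stim1 (ENSMUSG00000030987, chromosome 7, 102267806 to 102437319, plus strand) encodes the main sensor that couples to ORAI channels. Its level was 67.6 to 103 CPM in pericytes and 38.7 to 101 CPM in smooth muscle cells, in the 4 libraries with at least 50 cells of each. Fibroblasts held 39.5 CPM in WT and 41.2 in KO at sham, 33.0 and 19.0 at 24 h after ligation, and 10.3 and 15.2 at 72 h. The sham fibroblasts thus lay above all others, and the 72 h fibroblasts below all others. Endothelial levels ranged from 23.9 to 36.4 CPM, those of monocyte/macrophage cells from 18.0 to 22.9 and those of neutrophils from 14.8 to 21.1.

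Stim2 (ENSMUSG00000039156, chromosome 5, 53998499 to 54121057, plus strand) encodes the sensor that responds to small losses of store calcium and helps to hold resting calcium. In endothelial cells its level was 78.0 CPM in both sham libraries, 71.8 in WT and 59.1 in KO at 24 h after ligation, and 48.5 and 48.0 at 72 h. Every endothelial value lay above every value in fibroblasts (19.8 to 35.0), monocyte/macrophage cells (12.6 to 24.4) and neutrophils (19.8 to 33.2). Smooth muscle cells held 5.43 to 20.2 CPM, the reverse of their order for Stim1.

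The channel genes differed sharply in where they were found. Orai1 (ENSMUSG00000049686, chromosome 5, 123015074 to 123030456, plus strand) encodes the pore of the classical calcium-release-activated channel. It was highest in neutrophils, at 164 CPM in WT and 284 in KO at sham, 373 and 329 at 24 h after ligation, and 219 and 194 at 72 h. The lowest neutrophil library thus exceeded the highest endothelial library (116) and the highest monocyte/macrophage library (109). Endothelial levels were 78.6 to 116 CPM and monocyte/macrophage levels 75.9 to 109, and these overlapped. Fibroblasts held 18.8 to 57.7 CPM. Dendritic cells (139 to 222) and platelets (139 to 377) were also high. An antisense gene, Gm2479, overlaps Orai1, as Gm44040 overlaps Itpr1 and Itpr3os overlaps Itpr3. Whether the counting used strand is not given in the sources used here.

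Orai1 and Itpr2 are the channel gene and the IP3 receptor gene whose measured ratios in WT neutrophils at 24 h after ligation lay farthest from 1, in opposite directions, so the 250 bases before their start sites are shown for reference. They come from RefSeq on GRCm38.p6 and run 5′ to 3′ on the gene's strand, at chr5:123014824-123015073 (plus strand) for Orai1 and chr6:146502224-146502473 (minus strand) for Itpr2. Capitals mark matches to the GC box letters GGGCGG or their reverse complement CCGCCC.
Orai1: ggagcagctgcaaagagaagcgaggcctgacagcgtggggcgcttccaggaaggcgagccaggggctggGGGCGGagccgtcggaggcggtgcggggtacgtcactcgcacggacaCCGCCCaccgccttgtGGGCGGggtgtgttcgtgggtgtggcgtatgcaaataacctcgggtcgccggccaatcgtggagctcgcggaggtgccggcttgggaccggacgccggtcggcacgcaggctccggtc
Itpr2: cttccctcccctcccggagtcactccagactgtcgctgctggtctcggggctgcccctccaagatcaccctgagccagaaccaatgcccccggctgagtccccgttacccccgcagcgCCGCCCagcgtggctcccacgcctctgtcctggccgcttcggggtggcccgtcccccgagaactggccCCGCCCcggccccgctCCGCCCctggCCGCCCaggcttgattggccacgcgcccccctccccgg
Orai1 held 3 such matches and Itpr2 held 4. At least 1 match was present in 32.7% of 32851 promoters over the same 250 bases. The windows were 70.8% and 74.4% G and C, against a median of 52.4% over all promoters. The NFAT core letters GGAAA, or TTTCC on the other strand, were in neither window, and in 55.6% of all windows. The AP-1 letters TGANTCA, searched on both strands, were also in neither window and in 6.75% of all. These matches describe letters only, and were not tested for binding.

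Orai2 (ENSMUSG00000039747, chromosome 5, 136147459 to 136170713, minus strand) encodes a channel subunit of immune and neural cells. Neutrophils held 51.0 CPM in WT and 39.6 in KO at sham, 31.5 and 25.8 at 24 h after ligation, and 47.8 and 29.9 at 72 h. All 6 lay above the monocyte/macrophage levels, which were 9.70 to 17.8 CPM. Endothelial cells held 0.933 to 9.60 CPM, with the highest value in KO at 72 h after ligation, where neutrophil markers in endothelial cells summed to 3989 CPM, against 105 to 1751 CPM in the others. Without the cells that held at least 0.5% leukocyte marker UMIs, which were 425 of 676 in that library, the level was 7.13 CPM from 5 UMIs and still the highest of the endothelial libraries. The cells left there still held 743 CPM of monocyte/macrophage markers, against 76.2 to 209 in the other libraries. Smooth muscle cells had 0 Orai2 UMIs in all 4 libraries, which allows up to 2.21 to 8.92 CPM at 3 counts a library.

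Orai3 (ENSMUSG00000043964, chromosome 7, 127769815 to 127775150, plus strand), a subunit found in mammals only, was the most even of the channel genes. It held 26.7 to 35.7 CPM in fibroblasts, 24.0 to 33.8 in endothelial cells, 16.6 to 27.8 in monocyte/macrophage cells and 20.3 to 45.4 in neutrophils. These ranges overlapped. Smooth muscle cells (48.9 to 62.5) lay above all 4 main classes.

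The IP3 receptor genes divided the cell classes further. Itpr1 (ENSMUSG00000030102, chromosome 6, 108213096 to 108551109, plus strand), the receptor known from Purkinje neurons and smooth muscle, was highest in smooth muscle cells. They held 272 CPM in WT and 224 in KO at sham, and 191 and 187 at 24 h after ligation, where 51 and 59 cells were sampled. Pericytes held 102 to 154 CPM. In fibroblasts the level was 87.4 CPM in WT and 73.7 in KO at sham, 44.98 and 36.3 at 24 h after ligation, and 26.5 and 33.4 at 72 h. Both sham fibroblast values lay above the 4 after ligation. Monocyte/macrophage cells (12.2 to 18.3) and neutrophils (13.3 to 23.0) were low and overlapped.

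Itpr2 (ENSMUSG00000030287, chromosome 6, 146108299 to 146502223, minus strand), the receptor with the highest affinity for inositol trisphosphate, was highest among the main classes in endothelial cells and neutrophils. Endothelial cells held 89.4 CPM in WT and 90.4 in KO at sham, 73.7 and 73.6 at 24 h after ligation, and 62.6 and 52.0 at 72 h. Neutrophils held 72.5 and 83.0 CPM at sham, 39.3 and 50.5 at 24 h after ligation, and 71.8 and 77.6 at 72 h. The 24 h neutrophils lay below the other 4 libraries in both genotypes. Fibroblasts held 18.6 to 43.2 CPM and monocyte/macrophage cells 12.6 to 22.6. Outside the main classes, platelets held 34.7 to 81.0 CPM in 5 libraries.

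Itpr3 (ENSMUSG00000042644, chromosome 17, 27057304 to 27122223, plus strand), best known from epithelia and taste cells, was low and mainly endothelial among the main classes. Endothelial cells held 15.2 to 29.2 CPM, above all other main classes. Neutrophils held 0.976 to 3.74 CPM from 1 to 15 UMIs a library. B cells held 10.7 to 49.0 CPM. Platelets had 0 Itpr3 UMIs among 55 UMIs of the 3 receptor genes.

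The pumps followed another order. Atp2b1 (ENSMUSG00000019943, chromosome 10, 98914406 to 99026143, plus strand), the widely expressed PMCA1, was highest among the main classes in monocyte/macrophage cells. They held 381 CPM in WT and 387 in KO at sham, 291 and 207 at 24 h after ligation, and 235 and 252 at 72 h. Neutrophils held 357 and 248 CPM at sham, 174 and 126 at 24 h after ligation, and 164 and 165 at 72 h. In both classes the sham libraries lay above the libraries of the same genotype after ligation. Smooth muscle cells were in the same range, at 262 to 399 CPM. Fibroblasts (81.5 to 140) and endothelial cells (110 to 156) were lower and overlapped in range.

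Atp2a3 (ENSMUSG00000020788, chromosome 11, 72961169 to 72993044, plus strand) encodes SERCA3, a store pump of blood cells, platelets and some endothelia. Platelets held 113 to 347 CPM in 5 libraries, B cells 42.6 to 86.8 in 4 and smooth muscle cells 60.6 to 83.3 in 4. Neutrophils held 22.9 CPM in WT and 15.3 in KO at sham, 19.3 and 15.7 at 24 h after ligation, and 24.9 and 43.2 at 72 h. Fibroblasts were at 0.647 to 4.73 CPM, near the limit of detection at 2 to 14 UMIs a library.

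**Figure D1:**
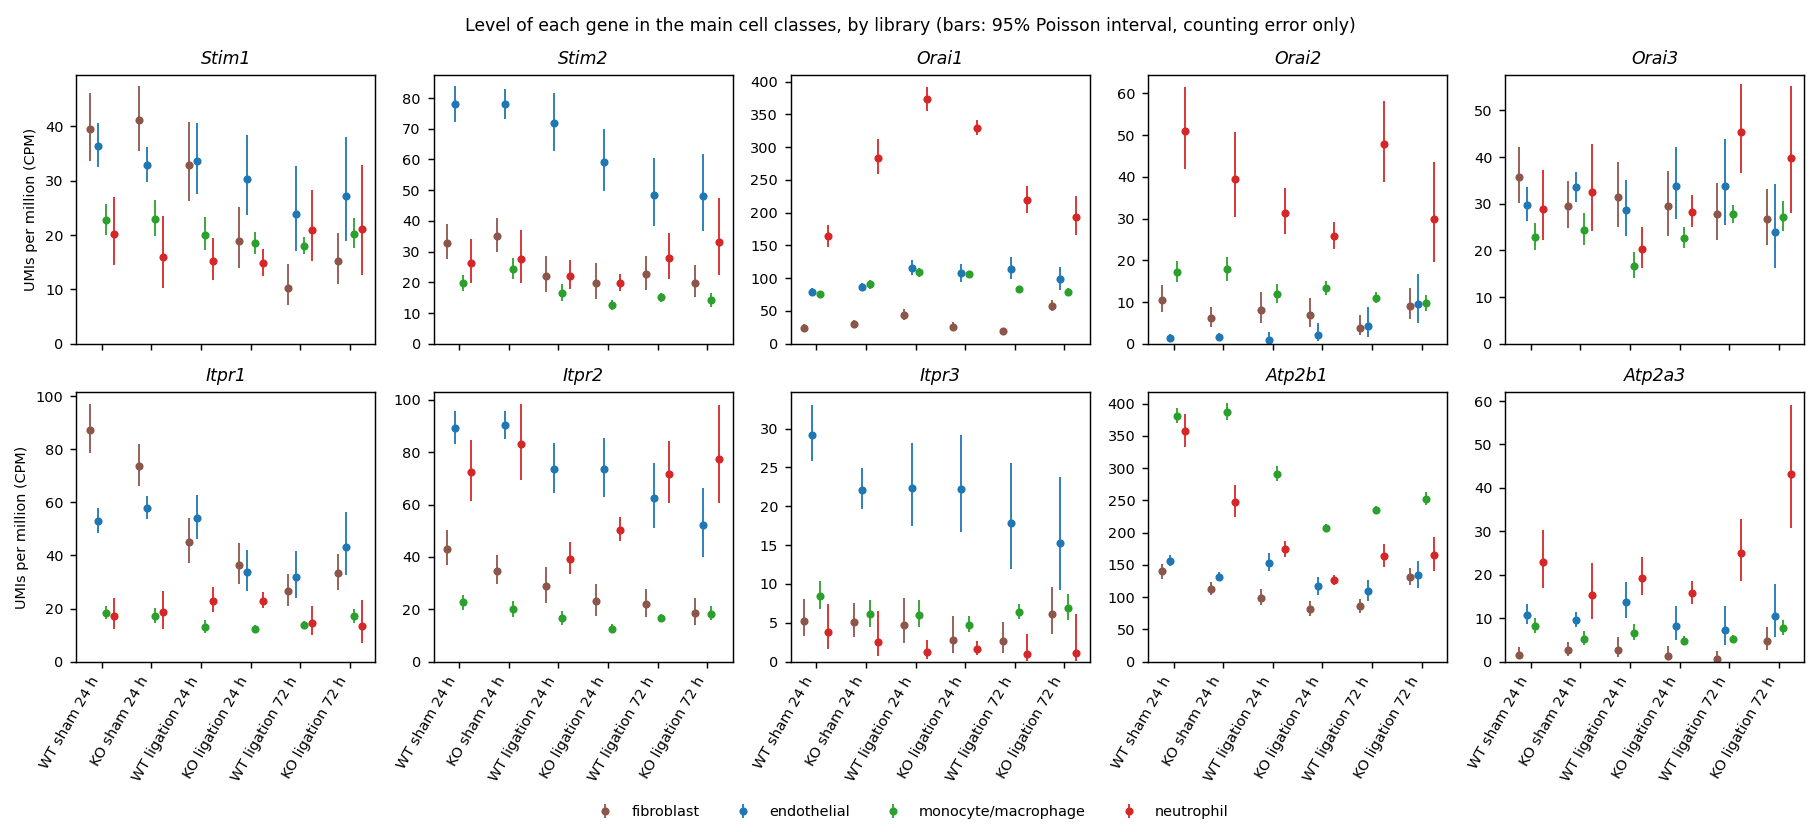
Level (vertical axis, CPM) of the 10 genes in the 4 main cell classes (colours), by library (horizontal axis), with 95% Poisson intervals. Neutrophils lie highest for Orai1 (164 to 373 CPM) and Orai2, endothelial cells for Stim2 and Itpr3, and monocyte/macrophage cells for Atp2b1 (207 to 387 CPM).

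Differences between the main classes were compared within libraries, as the difference of log2(CPM + 1) in each of the 6 libraries, with an exact two-sided sign-flip permutation test. Of the 60 comparisons (10 genes, 6 pairs of classes), 45 (75%) reached an exact permutation p of 0.03125, the smallest that 6 libraries allow, with the same class higher in 6 of 6 libraries. Over all genes 61.7% of 77515 tests of a gene in a pair of classes reached that p before adjustment. Adjusted over all genes by the Benjamini-Hochberg method, that smallest p became 0.0506 in this exact permutation test, so no gene could pass 0.05 after adjustment.

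By gene, Itpr3, Atp2b1 and Atp2a3 reached the smallest p in 6 of 6 class pairs, Stim2, Orai1, Orai2 and Itpr2 in 5, Itpr1 in 4, Stim1 in 2 and Orai3 in 1. Orai1 was higher in neutrophils than in monocyte/macrophage cells by 1.46 ± 0.25 on the log2 scale (SD, n = 6 libraries, exact permutation p = 0.03125). Against fibroblasts the neutrophil level of Orai1 was higher by 2.97 ± 0.69 (SD). Itpr3 was higher in endothelial cells than in neutrophils by 3.03 ± 0.30, and Stim2 was higher in endothelial than in monocyte/macrophage cells by 1.85 ± 0.23, both in 6 of 6 libraries. The pairs that did not separate included Itpr2 in endothelial cells and neutrophils (difference 0.18 ± 0.52, exact permutation p = 0.4375) and Orai3 in endothelial cells and neutrophils (exact permutation p = 0.875). Itpr1 in fibroblasts and endothelial cells differed by 0.05 ± 0.42, less than the spread between libraries.

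Within each family, the share of UMIs held by each gene gives the same picture in another form, with exact (Clopper-Pearson) 95% intervals. In smooth muscle cells Itpr1 held 97.5% (96.2 to 98.5) of 771 IP3 receptor UMIs, and in pericytes 75.7% (68.7 to 81.8) of 177. Platelets were at the other end, with Itpr2 at 90.9% (80.05 to 97.0) of 55. The platelet class includes a cluster with neutrophil genes among its leading genes, described below, and its shares mix the clusters. Neutrophils also held mostly Itpr2, at 71.5% of 1606 UMIs. Endothelial cells held 32.6% Itpr1, 52.5% Itpr2 and 14.9% Itpr3. B cells were the most even, with Itpr3 at 28.2% of 174 UMIs.

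Orai1 held 82.8% of 7394 Orai UMIs in neutrophils and 83.5% of 200 in platelets. In smooth muscle cells Orai3 held the larger part, at 63.8% (57.7 to 69.6) of 268 UMIs, and in pericytes its share was 56.5% (45.8 to 66.8) of 92. Fibroblasts held Orai1 and Orai3 at 46.3% and 43.1%. Stim2 held 68.8% of 3161 Stim UMIs in endothelial cells and 12.5% of 272 in smooth muscle cells. How well the 3′ tags of each gene are captured can differ, so the change of a share between classes is firmer than the share itself.

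**Figure D2:**
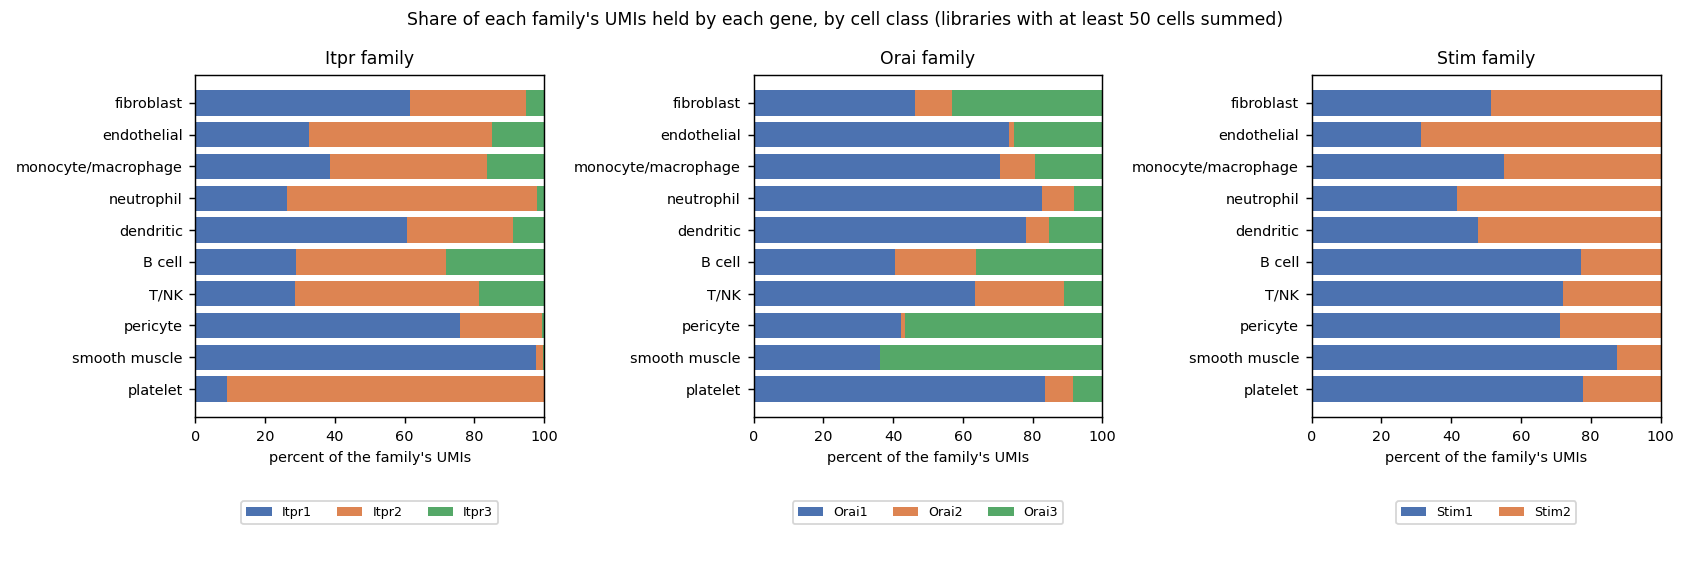
Percent of the UMIs of the IP3 receptor, ORAI and STIM families (horizontal axis) held by each gene (colours) in 10 cell classes (vertical axis), over libraries with at least 50 cells of the class. Smooth muscle cells are almost wholly Itpr1 (97.5%) and mostly Orai3 (63.8%), whereas platelets are mostly Itpr2 (90.9%) and Orai1. The platelet class includes a cluster with neutrophil genes among its leading genes.

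Clusters within a class also differed. The 10 genes and the other calcium genes were left out when clusters were made. In endothelium, Atp2a3 was at 22.1 CPM in a cluster led by Rbp7, Stmn2 and Btnl9 and at 3.5 CPM in one led by Aqp1, Timp4 and Fmo1. In the sham libraries these were 22.3 against 2.86 CPM in WT and 19.8 against 3.85 in KO, so the order held in both. A cluster led by Cytl1 and Vwf held the highest endothelial levels of Itpr2 (148 CPM), Itpr1 (94.4) and Stim1 (60.5). Atp2b1 was 374 CPM in macrophages led by Mgl2, Lyve1 and Cbr2 and 166 CPM in a cluster led by the proliferation genes Birc5 and Ube2c. Platelets fell in 2 clusters, and the class values above mix them. One led by Nrgn, Clec1b and Gp9 (429 cells) held 365 CPM of Atp2a3 and 11.9 CPM of Atp2b1. The other, led by Nrgn, Clec1b and Itga2b (123 cells, with the neutrophil genes Cstdc4, Cd177 and Cxcr2 among its leading genes), held 56.0 and 147 CPM. How the platelet Itpr2 and Orai1 UMIs divide between the 2 clusters is not given here.

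At 24 h after ligation, compared with sham, more of the 10 genes were lower than higher. By the fold rule given next, Orai2, Itpr2 and Atp2b1 in neutrophils, and Itpr1 and Itpr2 in fibroblasts, were lower in both genotypes. Orai1 was higher by that rule in WT neutrophils and WT fibroblasts, with smaller ratios above 1 in other WT classes. A ratio was counted as past the fold at 1.5 or above, or at the reciprocal or below, with at least 50 UMIs over both libraries and 100 cells of the class in each. Over the 4 main classes, 36 of 40 gene and class pairs were measured in WT, of which 2 were higher and 5 lower. Over all genes, 9.66% were higher and 13.9% lower by the same rule. In KO, 0 of 35 were higher and 11 lower, against 7.91% and 18.4% of all genes. The share of lower pairs in WT is close to that of all genes, and in KO it is above it. The KO count depends on the scaling, since 7 pairs were lower when scaled to the median gene. No share of all genes is given for that setting.

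In neutrophils, 1 of 9 measured genes was higher and 3 were lower in WT, against 10.4% and 24.5% of all genes, and 0 of 9 were higher and 3 lower in KO, against 6.59% and 16%. The same 3 genes were lower in both genotypes. Atp2b1 was lower after ligation by a ratio of 0.487 (95% interval 0.439 to 0.540) in WT and 0.509 (0.454 to 0.572) in KO. Itpr2 had ratios of 0.543 (0.433 to 0.680) and 0.608 (0.50 to 0.744), and Orai2 of 0.617 (0.475 to 0.803) and 0.652 (0.492 to 0.876). The median gene of neutrophils also moved, by -0.22 in WT and -0.19 in KO on the log2 scale, and the log2 ratio of Atp2b1 was -1.04 and -0.97. Scaled to that median gene, Atp2b1 (-0.81 and -0.79) and Itpr2 in WT (-0.66) were still past the fold. Itpr2 in KO (-0.53) and Orai2 in both genotypes (-0.47 and -0.43) were then inside it, and Itpr1 in WT (0.63) was past it. Orai1 was higher in WT, by a ratio of 2.28 (2.03 to 2.57). In KO, where the sham level was already 284 CPM, it went from 284 to 329 CPM and stayed inside the fold.

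The makeup of the neutrophils differed as well. A cluster led by Cstdc4 and Retnlg made up 2.94% of neutrophils in WT and 4.91% in KO at sham, 58.8% and 45.7% at 24 h after ligation, and 0.633% and 0% at 72 h, where 0 of 465 KO neutrophils fell in it. At 24 h after ligation its Orai1 level was 415 CPM in WT and 359 in KO, and Itpr2 was low over all its cells, at 35.5 CPM. Within the cluster led by Ccrl2, which all 6 libraries contain, the ratio of ligation to sham was 1.82 (1.49 to 2.21) for Orai1 in WT and 1.17 (1.02 to 1.35) in KO. For Atp2b1 it was 0.775 (0.653 to 0.917) in WT and 0.505 (0.430 to 0.594) in KO. For Itpr2 it was 0.762 (0.515 to 1.11) and 0.809 (0.629 to 1.05), and the Itpr2 intervals include 1. Within the cluster led by Retnlg, Itpr2 had a ratio of 0.507 (0.267 to 0.916) in WT, from 16 and 44 UMIs, and 0.846 (0.532 to 1.38) in KO. Atp2b1 there had 0.540 (0.414 to 0.697) and 0.706 (0.547 to 0.917), and Orai1 1.47 (1.10 to 1.97) and 0.865 (0.705 to 1.07). Of these 3 genes, those past the fold thus differed between the clusters: Orai1 in WT and Atp2b1 in KO in the one led by Ccrl2, and Itpr2 and Atp2b1 in WT in the one led by Retnlg. These results within clusters were added after seeing the data.

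**Figure D3:**
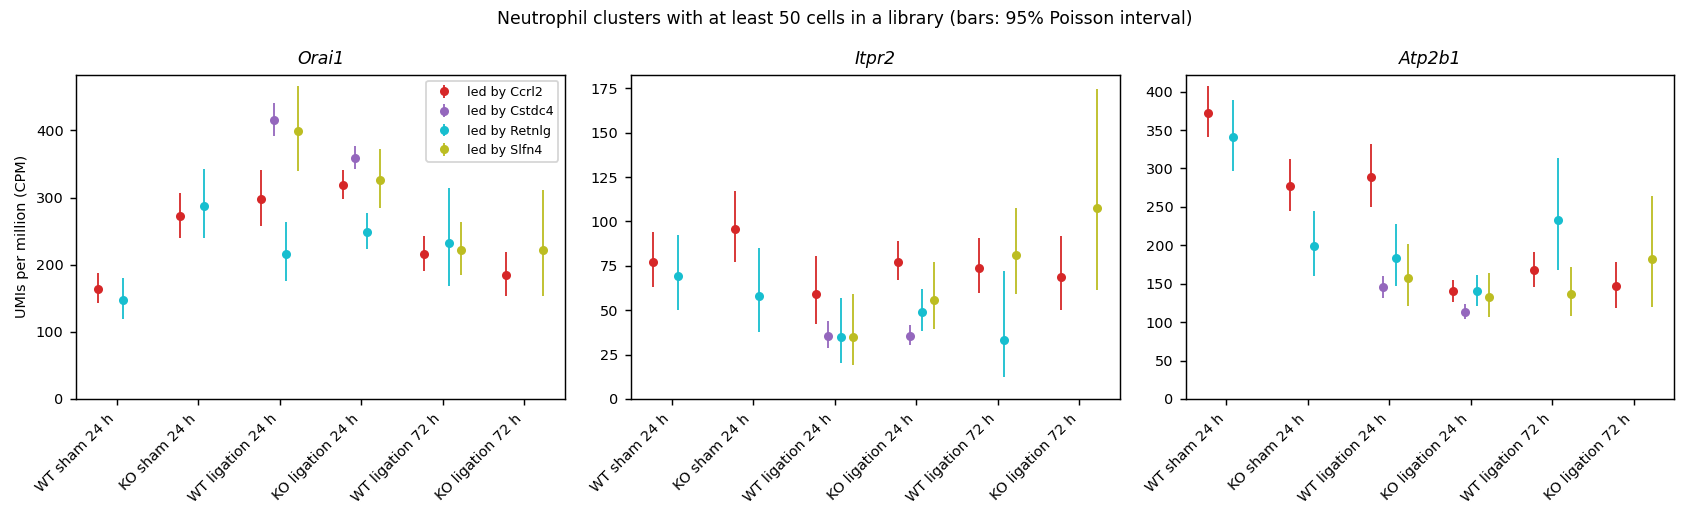
Level of Orai1, Itpr2 and Atp2b1 (vertical axes, CPM) in 4 neutrophil clusters (colours), by library (horizontal axis), with 95% Poisson intervals. The cluster led by Cstdc4 reaches 50 cells only at 24 h after ligation, where it holds the highest Orai1 (415 CPM in WT).

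In fibroblasts, Itpr1 was lower at 24 h after ligation in both genotypes, with ratios of 0.515 (0.414 to 0.637) in WT and 0.493 (0.386 to 0.623) in KO. Itpr2 was lower too, at 0.664 (0.499 to 0.877) and 0.662 (0.480 to 0.901), but scaled to the median gene its log2 ratios were -0.53 and -0.40, inside the fold. Stim1 (0.461) and Stim2 (0.565) were past the fold in KO only, and whether the genotypes differ in this was not tested. Orai1 was higher in WT fibroblasts, at 1.79 (1.35 to 2.37).

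The makeup of the fibroblasts differed with the operation. A cluster led by Clec3b, Dpep1 and Tnxb held 298 of 375 WT and 306 of 463 KO fibroblasts at sham, and 112 of 201 and 97 of 188 at 24 h after ligation. A cluster led by the chemokine genes Cxcl5 and Cxcl1 held 4% and 6.48% of fibroblasts at sham, and 28.4% and 40.4% at 24 h after ligation. In the latter, Itpr1 was at 18.5 CPM in WT and 14.4 in KO at 24 h. Within the cluster led by Clec3b, the ratio of ligation to sham for Itpr1 was 0.689 (0.526 to 0.893) in WT and 0.984 (0.734 to 1.30) in KO, both inside the fold. Itpr2 there had ratios of 0.853 (0.599 to 1.20) and 1.01 (0.634 to 1.56), and in KO Stim1 had 0.758 (0.502 to 1.12) and Stim2 0.723 (0.427 to 1.17). None of the lower fibroblast values thus passed the fold within that cluster, whereas Orai1 in WT did, at 2.22 (1.56 to 3.17).

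In KO monocyte/macrophage cells Atp2b1 (0.534), Stim2 (0.518) and Itpr2 (0.632) were lower, and scaled to the median gene the log2 ratio of Itpr2 was -0.38, inside the fold. A cluster led by Ccl24 held the largest part of this class in the sham and 24 h libraries of both genotypes, but other clusters shifted. In KO, one led by Mgl2 held 27.7% at sham and 7.55% at 24 h after ligation, and one led by Gm9733 and Plac8 held 16.5% and 33.5%. Over all libraries Itpr2 was at 33.5 CPM in the cluster led by Mgl2, 18.3 in that led by Gm9733 and 11.5 in that led by Ccl24. Atp2b1 was lower at 24 h than at sham within each of these clusters. What part the makeup plays was not tested. In KO endothelial cells Itpr1 was lower (0.583). A cluster led by Aqp1 held 56.5% of KO endothelial cells at sham and 37.1% at 24 h after ligation, and one led by Vwa1 held 6.54% and 30.1%. Within clusters the KO ratio of Itpr1 was 0.665 (0.448 to 0.954) in the one led by Aqp1, 0.387 (0.197 to 0.690) in the one led by Rbp7 and 0.631 (0.350 to 1.10) in the one led by Vwa1. All 3 were past the fold, and the last interval includes 1. Orai1 in WT monocyte/macrophage cells had a ratio of 1.43, inside the fold, and scaled to the median gene its log2 ratio of 0.63 was past it. Without cells that held at least 0.5% leukocyte marker UMIs, Orai1 in endothelial cells had 1.47 (1.29 to 1.67) in WT and 1.25 (1.08 to 1.44) in KO. In KO fibroblasts that setting gave 0.794 (0.569 to 1.10).

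**Figure D4:**
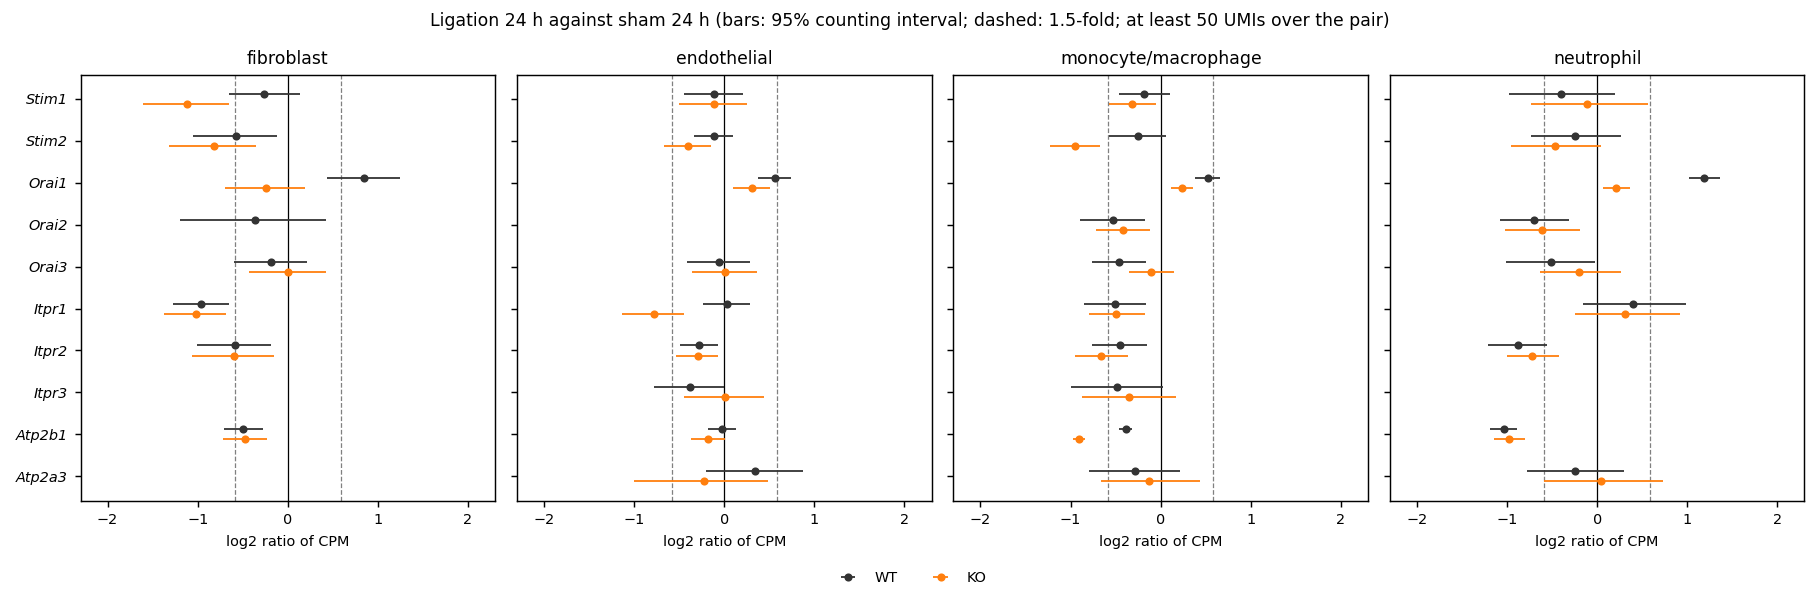
Log2 ratio of level at 24 h after ligation to sham (horizontal axis) for the 10 genes (vertical axis) in the 4 main classes, in WT (black) and KO (orange), with 95% counting intervals and dashed lines at 1.5-fold. Atp2b1, Itpr2 and Orai2 lie to the left in neutrophils of both genotypes, and Itpr1 in fibroblasts, while Orai1 in WT neutrophils lies at 1.19.

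From 24 h to 72 h after ligation, Orai1 was lower and Itpr2 higher in neutrophils of both genotypes, the reverse of their direction at 24 h. Scaled to the median gene, Orai1 stayed past the fold (-1.31 in WT and -1.27 in KO on the log2 scale) and Itpr2 did not. Orai2 in WT had a ratio of 1.52, which scaled to 0.06. Atp2b1 did not move back in WT, with a ratio of 0.943 and a scaled value of -0.63. These ratios share the 24 h libraries with the ratios above, so an opposite direction is partly built in. The makeup of the neutrophils differed too. The cluster led by Cstdc4 held 58.8% of WT and 45.7% of KO neutrophils at 24 h, and 0.633% and 0% at 72 h. Over all its cells it held 377 CPM of Orai1 and 35.5 CPM of Itpr2. Ratios within neutrophil clusters were not taken for this step, and what part the makeup plays was not tested. In WT, 4 of 35 measured pairs were higher and 7 lower, against 21.5% and 21.6% of all genes. In KO, 6 of 34 were higher and 2 lower, against 22.4% and 14.6%. Both counts of higher pairs are below the share of all genes by only a few pairs, and this was not tested. The median neutrophil gene was higher by 0.54 in WT and 0.51 in KO on the log2 scale, and by the fold rule 48.2% of genes were higher and 12.5% lower there in WT, and 46.8% and 10.5% in KO. Of the 9 measured members, 3 were higher and 2 lower in neutrophils of each genotype.

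Orai1 in neutrophils was lower at 72 h than at 24 h, with ratios of 0.588 (0.528 to 0.653) in WT and 0.589 (0.503 to 0.686) in KO. Itpr2 was higher, at 1.83 (1.45 to 2.29) and 1.54 (1.18 to 1.98), log2 ratios of 0.87 and 0.62, and scaled to the median gene these were 0.33 and 0.11, inside the fold. Orai3 was higher in WT neutrophils (2.24, 1.65 to 3.04) and in WT monocyte/macrophage cells (1.67, 1.40 to 2.01). Atp2a3 was higher in KO neutrophils, at 2.75 (1.88 to 3.93) from 39 and 150 UMIs. In WT fibroblasts Stim1 (0.314), Orai1 (0.428) and Itpr1 (0.590) were lower at 72 h than at 24 h. Orai1 there had been higher at 24 h than at sham, and Stim1 at 24 h was inside the fold. The Itpr1 value turned to a log2 difference of 0.23 when each cell was given equal weight, and scaled to the median gene it was -0.50, inside the fold. The fibroblasts of the 2 times also fell in different clusters, since one led by Cthrc1 and Col1a1 held 90 of 144 WT fibroblasts at 72 h and 4 of 201 at 24 h.

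In KO fibroblasts Orai1 was higher at 72 h than at 24 h, by 2.27 (1.69 to 3.08), and Atp2b1 by 1.61 (1.35 to 1.91). Both rest on the library that stood apart. Of its 1263 fibroblasts, 885 cells (70.1%) had at least 0.5% of their UMIs from the monocyte/macrophage and neutrophil markers, against at most 4.26% of fibroblasts in any other library. With such cells left out of every library, a setting chosen after seeing the data, the Orai1 ratio was 1.18 (0.749 to 1.83) and that of Atp2b1 1.28 (1.02 to 1.61), and neither passed the fold. The same setting left out 62.9% of endothelial cells in that library, against at most 5.56% in any other. It did not make the libraries alike. Monocyte/macrophage markers in the cells left summed to 595 CPM in fibroblasts of that library, against 45.5 to 195 in the others. In endothelial cells they summed to 743 CPM, against 76.2 to 209. A cut of 0.5% is also fewer UMIs in a cell of low depth. The setting brought Itpr2 in KO fibroblasts (0.664, 0.371 to 1.14) past the fold from 24 h to 72 h. It did the same for Itpr1 in KO endothelial cells (1.51, 0.991 to 2.25), and both intervals include 1. In KO monocyte/macrophage cells the ratio of 1.60 for Atp2a3 became 1.13 when cells of low depth were left out by class.

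KO was then compared with WT in each condition. At sham, 1 of 36 measured pairs was higher in KO and 2 were lower, against 4.08% and 3.45% of all genes. The higher one was Orai1 in neutrophils, with 284 CPM in KO against 164 in WT, a ratio of 1.74 (1.51 to 2.003). The ratio stood in both neutrophil clusters with at least 50 cells in these libraries, at 272 against 164 CPM in that led by Ccrl2 and 288 against 147 CPM in that led by Retnlg. The lower ones were Orai2 in fibroblasts (0.588, 0.351 to 0.971) and Atp2a3 in monocyte/macrophage cells (0.648, 0.441 to 0.940). They rest on 28 UMIs in KO and 42 in WT for Orai2, and on 44 and 89 for Atp2a3.

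At 24 h after ligation, 0 of 35 pairs were higher in KO and 4 were lower, against 4.4% and 8.39% of all genes. These were Stim1 (0.576, 0.394 to 0.831) and Orai1 (0.580, 0.419 to 0.797) in fibroblasts, and Itpr1 (0.625, 0.473 to 0.820) and Atp2a3 (0.595, 0.328 to 1.04) in endothelial cells. The interval of the last includes 1. Within the fibroblast cluster led by Clec3b the ratio was 0.556 (0.342 to 0.882) for Orai1 and 0.815 (0.513 to 1.28) for Stim1, which was inside the fold. Orai1 in neutrophils, at 373 CPM in WT and 329 in KO, was inside the fold.

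At 72 h after ligation, 3 of 32 pairs were higher in KO and 1 lower, against 9.6% and 7.3% of all genes. Orai1 in fibroblasts was at 57.7 CPM in KO and 18.8 in WT, a ratio of 3.08 (2.27 to 4.22), and Atp2b1 there had a ratio of 1.52 (1.30 to 1.79). Without the fibroblasts that held leukocyte markers, the Orai1 ratio was 1.47 (0.936 to 2.28), from 27.7 and 18.8 CPM, and that of Atp2b1 1.23 (0.992 to 1.53). In the same setting Itpr1 did pass the fold, at 1.55 (1.07 to 2.23) in fibroblasts and 1.82 (1.15 to 2.89) in endothelial cells, against 1.26 (0.931 to 1.71) and 1.35 (0.908 to 2.02) with all cells. The KO cells left in that setting still held more monocyte/macrophage markers than the WT cells, as given above. When cells of low depth were left out by class, the Orai1 ratio was 2.65 (1.89 to 3.75) and that of Atp2b1 1.45. In neutrophils, whose depth per cell was alike in both libraries (medians of 1941 and 2135 UMIs), Atp2a3 was higher in KO (1.74, 1.11 to 2.69) and Orai2 lower (0.625, 0.393 to 0.966).

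**Figure D5:**
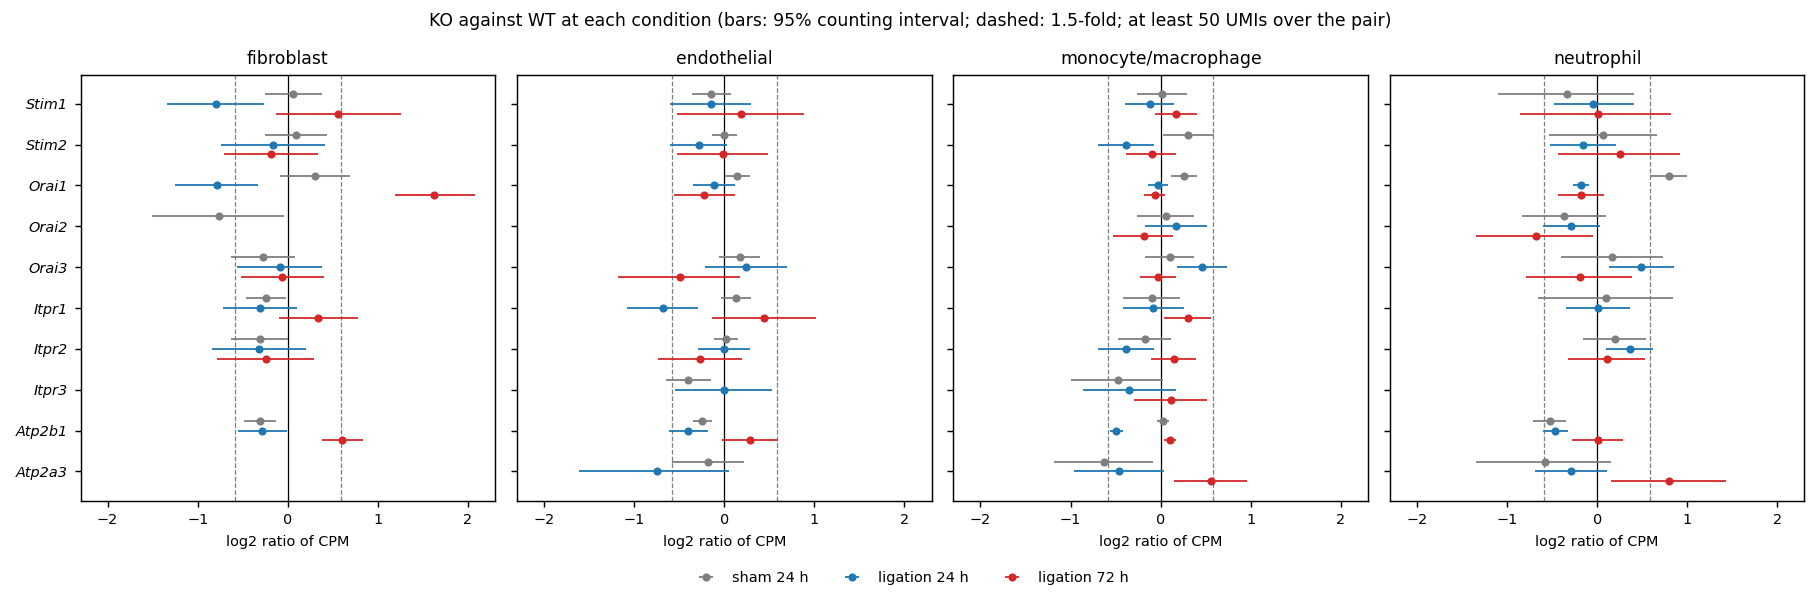
Log2 ratio of level in KO to WT (horizontal axis) for the 10 genes (vertical axis) in the 4 main classes, at sham 24 h (grey), ligation 24 h (blue) and ligation 72 h (red), with 95% counting intervals and dashed lines at 1.5-fold. Most values lie inside the lines, and the farthest is Orai1 in fibroblasts at 72 h (1.62), which comes from the library that stood apart.

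The wider pathway was followed with 66 other genes: regulators of STIM and ORAI, store and leak proteins, other calcium pumps and exchangers, mitochondrial calcium uptake, phospholipase C, calcineurin with NFAT and calmodulin, and Trpm4. At 24 h after ligation against sham, 4 of 163 measured gene and class pairs were higher and 20 lower in WT, and 5 of 167 were higher and 34 lower in KO. The shares of all genes in these comparisons were 9.66% and 13.9% in WT and 7.91% and 18.4% in KO. The phospholipase C genes gave 4 of 17 lower in WT and 7 of 19 in KO, with 0 higher in either. The calcineurin, NFAT and calmodulin genes gave 7 of 41 and 10 of 40 lower, with 1 higher in each.

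Lower in the fibroblasts of both genotypes were Plcb4 (ratio 0.436 in WT and 0.441 in KO) and Plce1 (0.659 and 0.266), which encode phospholipases C. Also lower there were the PMCA4 pump gene Atp2b4 (0.548 and 0.353), the calcineurin subunit gene Ppp3ca (0.666 and 0.487) and the NFAT gene Nfatc4 (0.532 and 0.423). Itprip, which encodes a protein that binds IP3 receptors, was higher in fibroblasts (1.94 and 2.47) and endothelial cells (1.71 and 2.69), with an interval of 0.967 to 2.95 in WT endothelial cells that includes 1. In monocyte/macrophage cells Cracr2b, an ORAI regulator, had ratios of 0.363 and 0.299, and Nfatc2 of 0.533 and 0.283. In neutrophils Ahcyl1, whose product binds IP3 receptors, had ratios of 0.501 and 0.575, and the calcineurin regulator Rcan1 of 0.619 and 0.569, with intervals that include 1 for Rcan1 in both genotypes. These pathway ratios were not scaled to the median gene or taken within clusters, whose makeup differed as given above. On the log2 scale the median gene moved by -0.06 in WT fibroblasts and -0.22 in WT neutrophils. Shifts of that size would bring Plce1, Ppp3ca and Rcan1 in WT inside the fold.

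Genes whose pattern over cells was most like that of a member were found among 11382 genes by Pearson's r of log2 levels over 57 points, each a cell class in a library, from 13 classes. These are descriptions without a test, since the points of a library share its depth and those of a class share its identity. Orai1 was most like AA467197 (r = 0.87) and Rhog (0.86), and Orai2 most like Rassf2 (0.87) and Sema4d (0.84). The nearest to Itpr1 was Myo9a (0.88), to Itpr2 Jak1 (0.80) and to Itpr3 H2-Q6 (0.87). Stim1 was nearest to Tapt1 (0.85), Stim2 to Znfx1 (0.84) and Atp2a3 to Rasgrp2 (0.85). Orai3 and Atp2b1 had no near partner, with a highest r of 0.70 (Bbs4) and 0.72 (Wnk1).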

How the data were processed

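Single-cell RNA of 6 pooled libraries was analysed, 1 for each group of genotype and condition. The deposited values are UMI counts, whole numbers for each gene in each cell. The submitters' processing notes name Cell Ranger 6.0.0 and the build mm10. Filters after Cell Ranger are not given in the sources used here, and each deposited cell had at least 500 UMIs. The deposited feature and barcode lists hold gene names and cell barcodes, and 99.6% of the 32285 gene identifiers matched GENCODE M21 (GRCm38), used for positions. RefSeq promoters matched 9 of the 10 genes.

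Cells with fewer than 200 genes or over 20% mitochondrial UMIs were left out, and 1653 cells with the highest Scrublet doublet scores were removed (0.8% per 1000 deposited cells). With scanpy 1.11.5, counts were scaled to 10000 per cell, 2000 variable genes (without the 10 genes, the pathway genes and Trpm4) gave 30 principal components, and a graph of 20 neighbours was clustered with Leiden (leidenalg 0.10.2) at resolution 1. Clusters were named from marker lists, and the cell types rest on these rebuilt names. Only classes with at least 3 markers found in 10% of a cluster's cells could name it, and clusters under 50 cells stayed unnamed. These 2 naming rules were set after the first cluster names, and before levels of the 10 genes, were seen here. The 10 genes, the pathway and marker lists and the comparisons were chosen with earlier results of these data known.

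UMIs were summed per class and library and divided by the class total (CPM, cells weighted by depth). Ratios have exact conditional Poisson intervals (95%, counting error only: no spread between mice, operations or preparations). Class differences used an exact sign-flip permutation over the 6 libraries with a pseudocount of 1 CPM. The adjustment first planned was over the 60 tests of the 10 genes, and the p-value given here is instead adjusted over all genes. All 10 genes were named, as were pathway genes past 1.5-fold in the same direction in both genotypes at 24 h after ligation. The ratio and permutation code was tested on simulated data. Alternatives were Leiden resolutions of 0.5 and 2, no doublet removal, 10% mitochondrial UMIs, a UMI minimum for each class, equal weight for cells, the barcode with the most UMIs left out, no UMI minimum for a pair, a pseudocount of 5 CPM, scaling to the median gene and leaving out each library. Results within neutrophil, fibroblast and endothelial clusters and without cells holding leukocyte markers were added after seeing the data.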

Additional observations from a re-analysis of the deposited data

Results flagged for a closer look

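The change from 24 h to 72 h after ligation went in opposite directions in WT and KO for 2 gene and class pairs, each with an interval on its own side of 1. The difference between genotypes was not tested, since each genotype has 1 library at each time. Orai1 in fibroblasts had a ratio of 0.428 in WT and 2.27 in KO. In KO the ratio was 1.18 without fibroblasts that held leukocyte markers. Atp2b1 in monocyte/macrophage cells had a ratio of 0.807 in WT and 1.22 in KO. At 24 h the Atp2b1 level was 291 CPM in WT and 207 in KO, and at 72 h 235 and 252. The makeup of this class differed between the times. A cluster led by Ccl24 held 55.2% of WT and 49.4% of KO cells at 24 h, and 9.78% and 6.98% at 72 h. Within the cluster led by Plac8, described below, Atp2b1 was higher at 72 h than at 24 h in both genotypes. In the one led by Ccl24 it was slightly lower in WT and higher in KO. The KO library at 72 h is the one that stood apart.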

How the results depend on the processing

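No paired analysis of conditions or genotypes was possible because each group has 1 library, so no replicate numbers are shared. The main classes were compared in pairs within libraries. In the differences between main classes, 840 alternative values kept their direction, while 17 outside the leave-one-out settings no longer reached the threshold. The threshold here is the one first planned, 0.05 after adjustment over the 60 tests of the 10 genes. After adjustment over all genes no pair reaches 0.05. The 45 pairs past it became 39 to 45 over the settings with 6 libraries and 0 in each leave-one-out setting, where the smallest possible p in the exact permutation test is 0.0625. Among 432 alternative values of the 48 ratios past the fold, 1 reversed: Itpr1 in WT fibroblasts from 24 h to 72 h, at 0.23 on the log2 scale with equal weight for cells, and the cause was not tested. Of the settings added after seeing the data, the fibroblast cluster led by Clec3b turned Itpr2 in KO at 24 h after ligation to 0.014 on the log2 scale, and the cause was not tested. Counts of gene and class pairs past the fold moved by over 1.5 times in these cases, whose cause was not tested. For KO from 24 h to 72 h, lower pairs were 4 at Leiden resolution 0.5 and 5 with equal weight for cells. For KO against WT at 72 h, lower pairs were 2 at Leiden resolution 2 and 6 with equal weight for cells, and higher pairs were 5 with at most 10% mitochondrial UMIs and 7 with no UMI minimum for a pair. For KO against WT at sham, 1 was lower with equal weight for cells and 2 were higher with no UMI minimum for a pair. At 24 h after ligation 1 was higher in KO than in WT with no UMI minimum for a pair. Scaling to the median gene gave 4 higher and 3 lower at 24 h after ligation against sham in WT, 7 lower in KO, and 2 higher in WT and 3 higher in KO from 24 h to 72 h. Depth limits Itpr3, Atp2a3 and Orai2 most, with under 50 UMIs over a pair in several classes.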

Other observations

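Levels of Atp2b1 were also set side by side within monocyte/macrophage clusters. In the cluster led by Ccl24 and Arg1, Atp2b1 was at 424 CPM in WT and 404 in KO at sham, 311 and 213 at 24 h after ligation, and 297 and 330 at 72 h. In the cluster led by Plac8, Atp2b1 was at 336 and 309 CPM at sham, 233 and 176 at 24 h, and 281 and 280 at 72 h. In macrophages led by Mgl2 and Lyve1, Atp2b1 was at 433 and 423 CPM at sham and 319 and 275 at 24 h. In all 3 clusters, the sham libraries lay above the 24 h library of the same genotype, and the KO library at 24 h was the lowest.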
